A study of Mus musculus with 6 samples.

Results

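The genes described here encode subunits of NADPH oxidases, the enzymes that make superoxide and hydrogen peroxide on purpose, in kidneys of diabetic mice with and without long-term atorvastatin. The 6 genes were chosen by symbol: Nox4, Cybb, Cyba, Ncf1, Ncf4 and Rac2. All 6 were among the 17684 genes of the deposited table, and all 6 passed the filter on low counts (at least 10 counts in at least 3 libraries), which 13679 genes passed.

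An NADPH oxidase passes electrons from NADPH across a membrane to oxygen. Nox4 is the catalytic subunit known for its abundance in kidney tubule cells; it is active without cytosolic partners and needs the membrane subunit encoded by Cyba. The phagocyte oxidase of neutrophils and macrophages has Cybb as its catalytic subunit, shares Cyba, and stays silent until cytosolic subunits, among them those encoded by Ncf1 and Ncf4, and a Rac GTPase, in blood cells mostly Rac2, join it at the membrane.

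RNA of whole kidney was sequenced on the BGISEQ-500 platform from 3 samples of a Db group and 3 samples of a Db + Ato10 group. Both groups were db/db mice, which lack a working leptin receptor and become obese and diabetic, of the strain labelled C57 BLKS/L, and all were 50 weeks old. The Db + Ato10 group was dosed by gavage for 40 weeks with 10 mg/kg per day of atorvastatin, a statin that inhibits cholesterol synthesis, with pauses in each week, and the Db group was given saline. A field of the sample records describes all 6 samples as treated, while another tells saline from atorvastatin, and the groups follow the latter. The samples of both groups came from mice that lived to that age. The records do not state that each sample was a separate animal, so p-values measure the spread between these samples.

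Total counts per library were 13134930, 11381678 and 12426051 in Db replicates 1 to 3 and 14578023, 14667909 and 13133241 in Db + Ato10 replicates 1 to 3. CPM are counts scaled to library size after TMM, edgeR's correction for library composition, and 3 counts were worth 0.198 to 0.260 CPM, below which expression was not detectable. That limit covers counting error only. Levels are compared between genes in TPM, which is scaled to transcript length.

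The libraries differed in ways the groups do not explain. The study enrolled male mice, yet Db replicate 1 had 1 count of Ddx3y, 1 of Eif2s3y and 0 of Kdm5d and Uty, all Y-linked genes. The summed level of these genes was 0.159 CPM in Db replicate 1 and between 114.6 and 142.9 CPM in the other 5 libraries. Results are therefore given with and without that library where they rest on it. Within the Db + Ato10 group, replicate 1 stood far from replicate 3. Spearman's correlation of log2 CPM across genes, which are not independent replicates, was 0.869 between these libraries, while replicate 3 had correlations of 0.978, 0.985 and 0.982 with Db replicates 1, 2 and 3.

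Nox4 RNA was abundant in every Db kidney and less abundant in all 3 Db + Ato10 kidneys, to very different degrees. Nox4 (NCBI Gene 50490) had 9928, 7619 and 7263 counts in Db replicates 1 to 3, which are 366, 307 and 272 TPM. In Db + Ato10 replicates 1 to 3 it had 1219, 3191 and 6926 counts, or 33.4, 99.5 and 238 TPM. The groups did not overlap, but Db + Ato10 replicate 3 lay close under the lowest Db library while replicate 1 lay far below it. Relative to the Db mean, the CPM of Nox4 was 0.118, 0.317 and 0.804 in Db + Ato10 replicates 1, 2 and 3. Mean CPM was 679 ± 102 (SD, n = 3) in the Db group and 280.4 ± 239 (SD, n = 3) in the Db + Ato10 group. The log2 fold change was -1.28 ± 0.64 (SE) and did not pass the quasi-likelihood test of edgeR (Benjamini-Hochberg adjusted p = 0.347 over all tested genes), nor DESeq2 (adjusted p = 0.229). In bulk tissue, fewer cells of a type and less RNA per cell cannot be told apart.

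Cyba, the membrane subunit that both oxidases use, had the highest level of the 6 genes in every library and varied least. Cyba (NCBI Gene 13057) stood at 647, 770 and 803 TPM in Db replicates 1 to 3 (2908, 3199 and 3566 counts). In Db + Ato10 replicates 1 to 3 it stood at 828, 864 and 829 TPM (5099, 4627 and 4019 counts). Each Db + Ato10 library was above each Db library, by a small margin. Mean CPM was 265 ± 30.3 (SD, n = 3) and 322 ± 12.5 (SD, n = 3), and the log2 fold change of 0.28 ± 0.16 (SE) did not pass edgeR (adjusted p = 0.391) or DESeq2 (adjusted p = 0.298).

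Cybb, the catalytic subunit of the phagocyte oxidase, was scarce in the Db kidneys and high in a pair of the Db + Ato10 kidneys. Cybb (NCBI Gene 13058) had 74, 128 and 99 counts in Db replicates 1 to 3, or 2.14, 4.05 and 2.91 TPM. It had 2315, 610 and 142 counts in Db + Ato10 replicates 1 to 3, or 49.7, 14.9 and 3.83 TPM. Replicate 1 was 18.3 times the Db mean in CPM and replicate 2 was 4.95 times, while replicate 3, at 1.34 times, lay within the range of the Db libraries in TPM. In CPM the groups were separated only by 11.2 in Db + Ato10 replicate 3 against 11.1 in Db replicate 2. The log2 fold change of Cybb was 3.04 ± 0.91 (SE), with an adjusted p of 0.239 in edgeR and 0.00579 in DESeq2.

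In CPM the cytosolic subunits had the same ranking of libraries as Cybb, with Db + Ato10 replicate 1 highest. Ncf1 (NCBI Gene 17969), the organizer whose phosphorylation starts assembly, had 24, 34 and 28 counts in Db replicates 1 to 3 and 3461, 452 and 82 counts in Db + Ato10 replicates 1 to 3. In TPM these are 1.24, 1.92 and 1.47 against 133, 19.8 and 3.96. Ncf1 was the only one of the 4 phagocyte-type genes (Cybb, Ncf1, Ncf4 and Rac2) whose groups did not overlap in CPM, FPKM and TPM alike. Its lowest Db + Ato10 library was 2.72 times the Db mean in CPM and its highest 96.1 times. The log2 fold change of Ncf1 was 5.22 ± 1.34 (SE), with an adjusted p of 0.239 in edgeR and 5.68e-05 in DESeq2.

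Ncf4 (NCBI Gene 17972), a subunit that binds a membrane phosphoinositide and sustains the oxidase on phagosomes, had 17, 29 and 19 counts in Db replicates 1 to 3. It had 2149, 174 and 32 counts in the Db + Ato10 libraries. The corresponding levels were 1.86, 3.77 and 2.40 TPM and 167, 15.2 and 3.24 TPM. Db + Ato10 replicate 3 lay within the Db range in TPM, and in CPM it was above the highest Db library only by 2.52 to 2.51. The log2 fold change of Ncf4 was 4.85 ± 1.49 (SE), with an adjusted p of 0.239 in edgeR and 0.00132 in DESeq2.

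Rac2 (NCBI Gene 19354), the Rac GTPase of blood cells, had 40, 88 and 56 counts in Db replicates 1 to 3 and 5829, 450 and 103 counts in Db + Ato10 replicates 1 to 3. Its levels were 1.84, 4.44 and 2.62 TPM and 199, 17.6 and 4.43 TPM. Here too replicate 3 of the Db + Ato10 group did not stand above Db replicate 2 in TPM, while replicates 1 and 2 were well above all Db libraries. The log2 fold change of Rac2 was 4.79 ± 1.46 (SE), with an adjusted p of 0.239 in edgeR and 0.0147 in DESeq2.

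**Figure D1:**
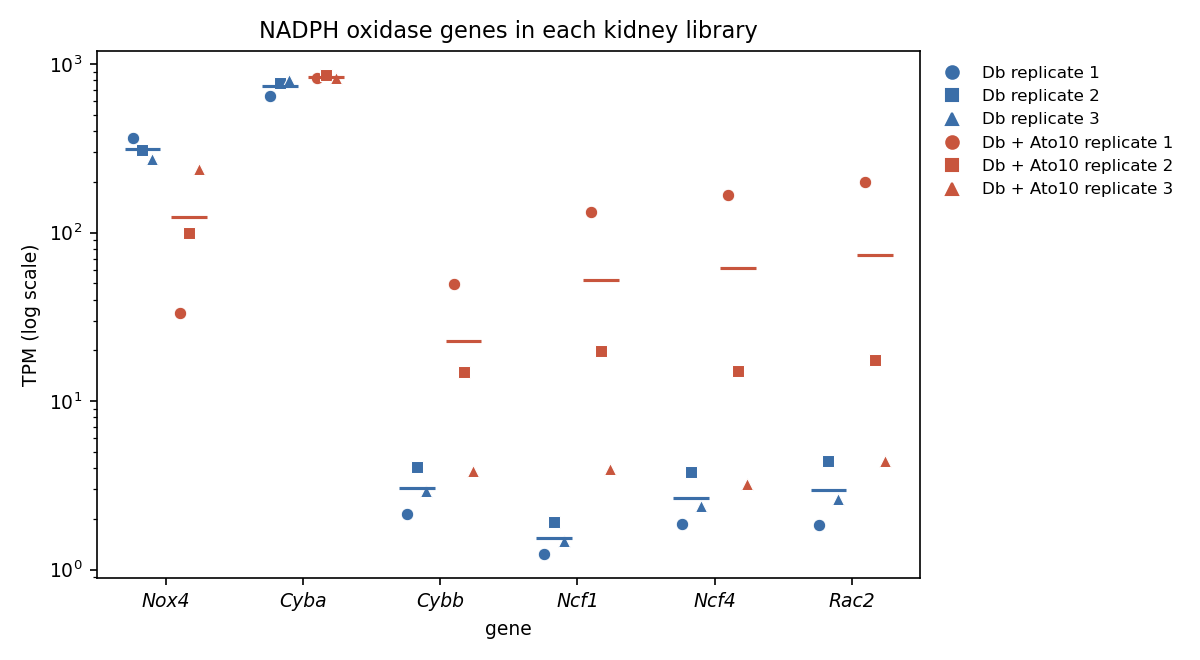
Level of each of the 6 genes in TPM (vertical axis, log scale) in every library, with Db in blue, Db + Ato10 in red, marker shapes for replicates 1 to 3 and horizontal lines at group means (n = 3). Nox4 was lower in each Db + Ato10 library than in each Db library, Cyba stayed between 647 and 864 TPM, and the other 4 genes were highest in Db + Ato10 replicate 1 and lowest of that group in replicate 3.

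These calls were read against all genes. A gene was called when its fold change exceeded 1.5 and its adjusted p was under 0.05. With edgeR 0 of 13679 genes were called (0%), and 0 of the 6 oxidase genes. At an unadjusted p under 0.05 edgeR counted 1533 genes higher (11.2%) and 781 genes lower (5.71%) in the Db + Ato10 group, among them Cybb, Ncf1, Ncf4 and Rac2, all higher. DESeq2 called 707 genes higher (5.17%) and 177 lower (1.29%), and of the oxidase genes it called the same 4 as higher and neither Nox4 nor Cyba. The CPM of the groups did not overlap for 1640 genes higher (12%) and 1540 genes lower (11.3%), and for all 6 oxidase genes, 5 higher and Nox4 lower. The 6 genes were chosen with results of these data known, so their share above these backgrounds is a description. By log2 fold change, Ncf1, Ncf4, Rac2 and Cybb ranked 63, 80, 83 and 278 from the highest of the 13679 genes, and Nox4 ranked 159 from the lowest.

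Leaving out a single library changed some of the calls. With edgeR 0 genes were called in each such fit except the one without Db + Ato10 replicate 3. Without Db + Ato10 replicate 3, the library nearest to the Db group, edgeR called 805 of 13517 genes higher (5.96%) and 301 lower (2.23%). Nox4 was then among the lower genes, with a log2 fold change of -2.19 ± 0.46 (SE) and an adjusted p of 0.0460 in edgeR's quasi-likelihood test. Cybb, Ncf1, Ncf4 and Rac2 were among the higher genes, with log2 fold changes of 3.55, 5.77, 5.42 and 5.35 and edgeR adjusted p-values of 0.0312, 0.0287, 0.0395 and 0.0410. Cyba was not called (log2 fold change 0.29, adjusted p = 0.311). Without Db + Ato10 replicate 1 the log2 fold changes of Nox4, Cybb, Ncf1, Ncf4 and Rac2 were -0.83, 1.67, 2.98, 2.00 and 1.93, and edgeR called none of them (0 genes in all). Leaving out Db replicate 1, the library without Y-linked RNA, kept the direction of all 6 genes, with log2 fold changes of -1.14 for Nox4, 2.86 for Cybb, 0.20 for Cyba, 5.10 for Ncf1, 4.70 for Ncf4 and 4.56 for Rac2. None of them was called by edgeR in that fit, with adjusted p-values from 0.588 to 0.673. DESeq2 with a library left out, a choice made after seeing the data, called Ncf1 in all 6 such fits, Ncf4 in 4, Cybb and Rac2 in 3 each, Nox4 in 1 and Cyba in 0. Over all genes these fits called from 195 of 13588 (Db replicate 1 dropped) to 2614 of 13517 (Db + Ato10 replicate 3 dropped), and the latter was the fit that called Nox4. When either replicate 1 was dropped, Ncf1 was the only one of the 6 genes it called, with adjusted p-values of 0.00956 (Db library dropped) and 0.000866 (Db + Ato10 library dropped).

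The oxidases were also compared as a ratio within a library, which needs no scaling between libraries. In Db replicates 1 to 3 the TPM of Cybb was 0.00585, 0.0132 and 0.0107 times that of Nox4. In Db + Ato10 replicates 1 to 3 it was 1.49, 0.150 and 0.0161 times that of Nox4. Nox4 thus exceeded Cybb in 5 of 6 libraries, and in Db + Ato10 replicate 1 the order was turned. The log2 ratio averaged -6.74 ± 0.61 (SD, n = 3) in the Db group and -2.71 ± 3.27 (SD, n = 3) in the Db + Ato10 group, a difference of 4.03. An exact two-sided permutation test over the 6 libraries gave p = 0.1, the smallest value that 3 against 3 samples allow. Without Db + Ato10 replicate 1 the difference was 2.39, without replicate 3 it was 5.65, and without Db replicate 1 it was 3.69.

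The cytosolic subunits gave the same order of libraries. Relative to Nox4, Ncf1 stood at log2 ratios of -8.20, -7.32 and -7.53 in Db replicates 1 to 3 and at 1.99, -2.33 and -5.91 in Db + Ato10 replicates 1 to 3. For Rac2 the log2 ratios were -7.64, -6.11 and -6.70 against 2.58, -2.50 and -5.75. Those of Ncf4 were -7.62, -6.35 and -6.82 against 2.32, -2.71 and -6.20. Each of these ratios was above 0 only in Db + Ato10 replicate 1, so that this was the only library in which all phagocyte-type genes exceeded Nox4 per length. Cyba, in contrast, exceeded Nox4 in every library, by 1.77, 2.50 and 2.95 times in Db replicates 1 to 3 and by 24.8, 8.69 and 3.48 times in Db + Ato10 replicates 1 to 3.

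**Figure D2:**
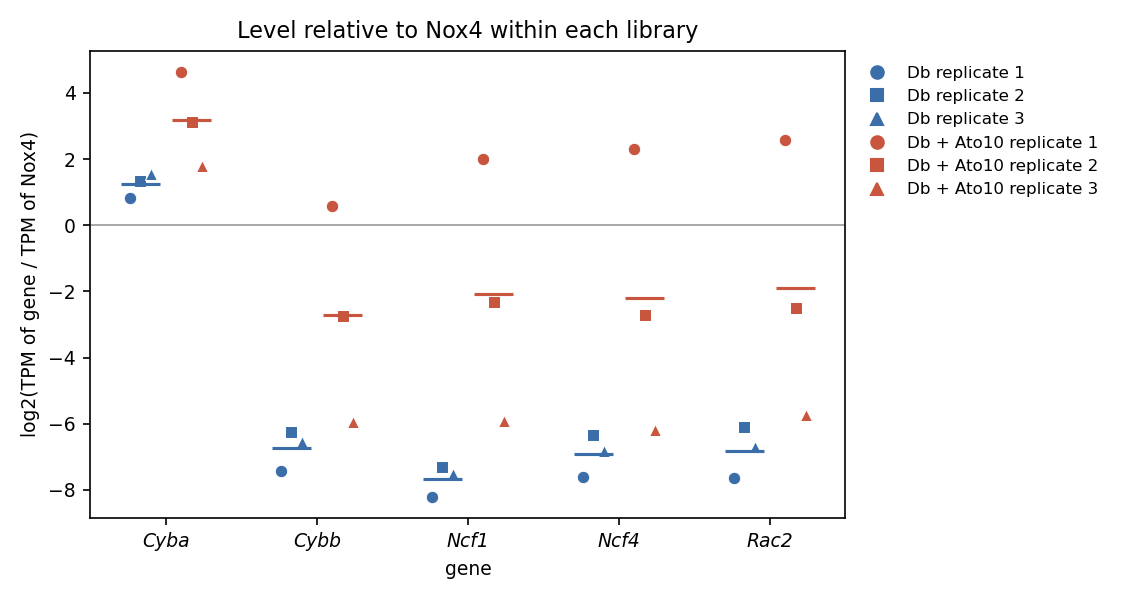
Log2 of the TPM of each gene over that of Nox4 (vertical axis) within each library, with Db in blue, Db + Ato10 in red, marker shapes for replicates 1 to 3 and horizontal lines at group means (n = 3). All ratios were higher in each Db + Ato10 library than in each Db library, and those of Cybb, Ncf1, Ncf4 and Rac2 crossed 0 only in Db + Ato10 replicate 1.

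The order of levels within a library therefore changed. In the Db group, mean TPM was 740.1 ± 82.0 for Cyba and 315 ± 47.4 for Nox4 (SD, n = 3), and these neighbours were separated by more than their spread. Cybb (3.03 ± 0.96), Rac2 (2.97 ± 1.33), Ncf4 (2.68 ± 0.98) and Ncf1 (1.54 ± 0.35) followed in TPM, and neighbours among these 4 genes did not differ beyond their spread. In Db + Ato10 replicate 1 the order was Cyba, Rac2, Ncf4, Ncf1, Cybb and Nox4. In replicates 2 and 3 of that group Nox4 still came after Cyba, with the other 4 genes far below it.

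The transcript table showed which transcripts carried these counts, which there are estimates. Of 7 Nox4 transcripts, NM_015760.5 took 70.4%, 64.7% and 69.3% of the counts in Db replicates 1 to 3 and 75.6%, 53.2% and 70.3% in Db + Ato10 replicates 1 to 3. NM_001285835.1 took 26.8%, 31.9% and 27.7% against 22.0%, 43.3% and 26.9%. The shares of the groups overlapped for both transcripts, whose log2 fold changes were -1.30 ± 0.67 and -1.16 ± 0.69 (SE), with edgeR adjusted p-values of 0.679 and 0.721. A minor one, NM_001285833.1, was estimated at 9.56, 20.0 and 20.4 counts in the Db libraries and at 0 in all Db + Ato10 libraries, which at these counts is a weak basis. Cybb and Rac2 had 1 transcript each, Cyba was carried by NM_007806.3 (between 97.5% and 98.5% of counts) and Ncf1 by NM_010876.4 (between 97.5% and 100%). The counts of Ncf4 were spread over 4 transcripts, and in Db libraries rested on at most 29 counts. There NM_008677.2 took 0% to 68.1% and XM_006520565.2 took 31.9% to 79.9%, while XM_006520566.2 took 40.9% in Db replicate 3. In Db + Ato10 libraries NM_008677.2 took 70.75% to 93.2%, and XM_006520564.1 took 19.9% in replicate 1. Of 30175 transcripts tested, edgeR called 0 (0%), with 2471 at an unadjusted p under 0.05, and 0 of the 11 tested transcripts of these genes. DESeq2 called 889 (2.95%) and 5 of the 11, namely NM_001285833.1 of Nox4 as lower and, as higher, the transcripts of Cybb and Rac2, NM_010876.4 of Ncf1 and NM_008677.2 of Ncf4, the last with at most 11.6 counts in a Db library. NM_001285833.1 reached the filter by the Db libraries alone, so its direction was bound to be lower.

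Some of these loci overlap other genes. By the GENCODE M21 annotation of GRCm38, Gtf2ird2 overlaps Ncf1 on the opposite strand, and the sources do not say whether counting used strand, so reads of the pair cannot be told apart where they overlap. Gtf2ird2 itself had between 8.10 and 12.9 CPM in all 6 libraries, a far smaller range than that of Ncf1. Gm20388, which spans Cyba on the opposite strand, is not analysed here.

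The genes whose profile over the 6 libraries was nearest to that of Nox4 were sought among 11378 other tested genes with a mean of at least 5 CPM. Likeness was the root mean square difference between log2 CPM values, each centred on its own mean. The 5 nearest were Spp2 (0.148), Prima1 (0.200), Snx29 (0.226), Ass1 (0.245) and Slc16a4 (0.245), beside a median of 1.15 over all genes compared. Ass1, the urea cycle and arginine synthesis enzyme known for its high level in proximal tubule, had 2792, 2661 and 2480 CPM in Db replicates 1 to 3 and 456, 1191 and 2653 CPM in Db + Ato10 replicates 1 to 3. Its groups overlapped, unlike those of Nox4, but replicates 1 and 2 of the Db + Ato10 group were likewise the lowest libraries.

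The 5 genes nearest to Cybb, measured in the same way, were Lsp1 (0.109), Pik3cg (0.125), Laptm5 (0.148), Cyth4 (0.157) and Fermt3 (0.162), beside a median of 1.65. Laptm5, a lysosomal protein of blood cells, had 8.58, 21.7 and 15.02 CPM in Db replicates 1 to 3 and 247, 73.5 and 21.3 CPM in Db + Ato10 replicates 1 to 3. Fermt3, the integrin activator of blood cells, had 2.30, 4.33 and 3.23 CPM against 61.0, 13.7 and 5.44 CPM. Of the oxidase genes, Ncf4 came 329th, Rac2 341st and Ncf1 476th in nearness to Cybb. Nox4 came 11302nd.

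Of the other oxidases and their partners, 11 of 12 listed genes were in the table and 5 passed the filter, while Nox3 is not analysed here. With edgeR 0 of the 5 were called, and DESeq2 called 1, as higher, where it called 5.17% of all tested genes as higher. Their median log2 fold change was 0.44, beside -0.01 over all 13679 tested genes. Rac1, the ubiquitous Rac GTPase, stood at 305, 291 and 286 CPM in Db replicates 1 to 3 and at 410.4, 333 and 304 CPM in Db + Ato10 replicates 1 to 3, so that its groups overlapped. Poldip2, a binding partner of the Cyba protein known to raise Nox4 activity, stood at 142, 131.5 and 149.9 CPM in the Db libraries against 89.2, 85.6 and 137 CPM. Without Db + Ato10 replicate 3, edgeR called Poldip2 as lower. The catalytic genes Nox1, Duox1 and Duox2 were below the filter and were not tested. Nox1 and Duox1 had at most 5 counts in any library, while Duox2 had 0 counts in all 3 Db libraries and 58, 34 and 8 counts in Db + Ato10 replicates 1 to 3.

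Of 20 genes for receptors and signals that start assembly of the phagocyte oxidase, all 20 were tested and all 20 had a positive log2 fold change, where 6757 of the 13679 tested genes did. Their median log2 fold change was 3.76, and 1.96 without Db + Ato10 replicate 1. With edgeR 0 were called, with 18 at an unadjusted p under 0.05, all higher. DESeq2 called 14, all higher, with Fpr1 left without an adjusted p. Fpr1 reached the filter by the Db + Ato10 libraries alone, so its direction was bound to be positive. The 14 were the Fc receptor genes Fcgr1, Fcgr3, Fcgr4 and their signalling chain Fcer1g, the integrin genes Itgam and Itgb2, the chemoattractant receptor genes Fpr2 and C5ar1, the adaptor gene Tyrobp, and the signalling genes Syk, Vav1, Dock2, Pik3cd and Pik3cg. DESeq2 with a library left out, again chosen after seeing the data, called from 4 of 20 tested (Db replicate 1 dropped) to 17 of 19 tested (Db + Ato10 replicate 3 dropped), and edgeR with the latter dropped called 15 of 19. The groups did not overlap in CPM for 10 of the 20, all higher. Over all tested genes the shares that were higher were 11.2% at an unadjusted p under 0.05, 5.17% called by DESeq2 and 12% without overlap.

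Fcer1g, the most abundant of these in TPM in Db + Ato10 replicates 1 and 2 only, had 5.88, 14.4 and 8.64 CPM in Db replicates 1 to 3 and 567, 59.4 and 15.3 CPM in Db + Ato10 replicates 1 to 3. Itgam, a complement receptor chain of phagocytes, had 1.83, 4.94 and 1.78 CPM against 357, 40.3 and 5.83 CPM. Both were highest in Db + Ato10 replicate 1 and then in replicate 2, as Cybb was. Prkcd, a kinase that phosphorylates the Ncf1 protein and is made in many cell types, had 101, 79.0 and 89.2 CPM against 129, 94.6 and 83.5 CPM. Its groups overlapped, with a log2 fold change of 0.19 (edgeR adjusted p = 0.616). Fcgr2b, an inhibitory Fc receptor gene, had 32.3, 38.1 and 44.3 CPM against 223, 70.4 and 37.8 CPM. With every library included, neither edgeR nor DESeq2 called Fcgr2b, while DESeq2 without Db + Ato10 replicate 3 called it.

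Genes that dispose of superoxide and peroxide had no common direction. All 15 were tested, 7 with a positive and 8 with a negative log2 fold change, and the median was -0.01, or 0.10 without Db + Ato10 replicate 1. With edgeR 0 of the 15 were called (2 at an unadjusted p under 0.05, both higher, beside 11.2% of all tested genes), and DESeq2 called 0. Their most abundant gene was Gpx3, the plasma glutathione peroxidase that kidney tubules secrete. In CPM it stood at 43549, 54119 and 39597 in Db replicates 1 to 3 and at 29253, 47685 and 49523 in Db + Ato10 replicates 1 to 3. Gpx1, the cytosolic glutathione peroxidase, stood at 1558, 1816 and 1572 CPM against 1306, 1854 and 2002 CPM. Prdx5, a peroxiredoxin, stood at 1073, 1005 and 1063 CPM against 997, 814 and 1177 CPM. The groups overlapped for all 3 genes. For 2 of the 15 the groups did not overlap in CPM, both higher, beside 12% of all tested genes.

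Markers of blood cells moved with the phagocyte oxidase genes, and their part in those values was not tested. The most abundant gene of each marker list is the one with the highest mean TPM over the 6 libraries, which a single library can decide. All 8 pan-leukocyte markers had a positive log2 fold change (median 3.20, or 1.67 without Db + Ato10 replicate 1), 8 at an unadjusted p under 0.05 in edgeR, which called 0, while DESeq2 called 8. Their summed level was 49.4, 89.6 and 72.6 CPM in Db replicates 1 to 3 and 1668, 299 and 106 CPM in Db + Ato10 replicates 1 to 3, with Cd52 the most abundant. All 12 macrophage markers had a positive log2 fold change (median 3.18, or 2.17 without Db + Ato10 replicate 1), and DESeq2 called 11 and edgeR 0, with 12 at an unadjusted p under 0.05. Their sum was 138, 251 and 189.5 CPM against 5325, 1337 and 295 CPM, with Lyz2 the most abundant. For both lists Db + Ato10 replicate 1 was the highest library and replicate 3 came nearest to the Db libraries. Of all tested genes, 11.2% were higher at an unadjusted p under 0.05 in edgeR, and DESeq2 called 5.17% as higher.

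Neutrophil markers differed most between the Db + Ato10 libraries. Their summed level over 12 genes was 7.39, 11.1 and 6.87 CPM in Db replicates 1 to 3 and 11510.1, 184 and 32.5 CPM in Db + Ato10 replicates 1 to 3. S100a9, the most abundant, had 2.07, 4.59 and 2.50 CPM against 5285, 42.8 and 5.36 CPM, and S100a8 was next. Most of the sum thus came from Db + Ato10 replicate 1, while replicates 2 and 3 were also above every Db library. In replicate 3 most of the 32.5 CPM came from 1 gene, Ltf, at 18.7 CPM against 0.795, 0.433 and 0.808 CPM in Db replicates 1 to 3. Only 6 of the 12 passed the filter, of which Mmp9 and Retnlg reached it by the Db + Ato10 libraries alone, so that the filter allowed them only a positive direction. With edgeR 0 of the 6 were called, and DESeq2 called Csf3r, Ltf and Mmp9, with S100a8, S100a9 and Retnlg left without a p. DESeq2 called 5.17% of all tested genes as higher. The defining marker Ly6g had 0 CPM in Db replicate 2 and Db + Ato10 replicate 3 and 26.1 CPM in Db + Ato10 replicate 1.

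Lymphocyte markers were low throughout. The 7 T cell markers in the table summed to 3.10, 7.28 and 3.47 CPM in Db replicates 1 to 3 and to 25.0, 19.3 and 3.94 CPM in Db + Ato10 replicates 1 to 3, with Cd3g the most abundant. Of the 4 tested, edgeR called 0 (1 at an unadjusted p under 0.05) and DESeq2 1. The 8 B cell markers summed to 2.78, 5.20 and 2.75 CPM against 23.3, 8.58 and 3.39 CPM, with Cd79a the most abundant by the mean but Cd79b above it in TPM in 5 of 6 libraries, and of the 2 tested edgeR called 0 (1 at an unadjusted p under 0.05) and DESeq2 0. The 2 tested B cell markers went in opposite directions, with log2 fold changes of 2.10 for Cd79b and -0.89 for Cr2. In CPM, Cr2 was lower in each Db + Ato10 library than in each Db library. Trac is not analysed here. Db + Ato10 replicates 1 and 2 were the highest libraries for both lists. Of all tested genes, 11.2% were higher at an unadjusted p under 0.05 in edgeR, and DESeq2 called 5.17% as higher.

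Set against the summed TPM of the 8 pan-leukocyte markers, a ratio chosen after the values were seen, Cybb and Ncf1 gave different pictures. Cybb stood at 5.54%, 3.99% and 4.32% of that sum in Db replicates 1 to 3 and at 2.96%, 4.31% and 3.96% in Db + Ato10 replicates 1 to 3. The groups overlapped. Ncf1 stood at 3.21%, 1.89% and 2.18% against 7.92%, 5.72% and 4.09%, higher in each Db + Ato10 library. Ncf4 (between 3.57% and 4.82% in the Db group) and Rac2 (between 3.89% and 4.77%) were above the Db range only in Db + Ato10 replicate 1 (9.93% and 11.9%), except that Rac2 was also slightly above it in replicate 2 (5.07%). The upper end of both Db ranges was Db replicate 1. Without that library, Rac2 (4.38% and 3.89% in Db) was higher in every Db + Ato10 library, with 4.58% in replicate 3. Ncf4 (3.72% and 3.57% in Db) was then also exceeded in Db + Ato10 replicate 2 (4.39%), but not in replicate 3 (3.35%). Set against the 12 macrophage markers instead, Cybb stood at 1.38%, 1.18% and 1.21% in Db replicates 1 to 3 and at 0.654%, 0.710% and 1.04% in Db + Ato10 replicates 1 to 3, lower in each Db + Ato10 library. On that scale Ncf1 was again higher in each Db + Ato10 library, and the groups overlapped for Ncf4 and Rac2. The picture for Cybb thus depended on the markers it was set against, and no test was made of these ratios.

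The summed proximal tubule markers were lowest in the same libraries as Nox4, and their part in its values was not tested. All 14 proximal tubule markers had a negative log2 fold change (median -0.78, or -0.33 without Db + Ato10 replicate 1 and -1.55 without replicate 3), yet edgeR called 0, with 0 at an unadjusted p under 0.05, and DESeq2 called 0. Their sum was 29408, 21987 and 26678 CPM in Db replicates 1 to 3 and 5899, 14737 and 25989 CPM in Db + Ato10 replicates 1 to 3. Slc34a1, the phosphate transporter of the proximal tubule, stood at 4266, 3110 and 3887 CPM against 354, 1877 and 4227 CPM. By this sum and by Slc34a1, Db + Ato10 replicates 1 and 2 were thus the lowest libraries, as for Nox4, while replicate 3 lay within the Db range. Not every single marker had this order. For 2 of the 14 the groups did not overlap in CPM, both lower, beside 11.3% of all tested genes. Nox4 stood at 1.57%, 1.73% and 1.31% of the summed TPM of the 14 markers in Db replicates 1 to 3 and at 0.813%, 0.902% and 1.26% in Db + Ato10 replicates 1 to 3. That ratio, also chosen after the values were seen and not tested, was lower in each Db + Ato10 library, by a small margin in replicate 3. Set against the 8 markers of the thick ascending limb and distal tubule instead, Nox4 stood at 6.54%, 5.02% and 4.92% in Db replicates 1 to 3 and at 0.945%, 5.29% and 5.80% in Db + Ato10 replicates 1 to 3, and the groups overlapped.

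The 8 markers of the thick ascending limb and distal tubule all had a negative log2 fold change (median -0.91), 5 of them at an unadjusted p under 0.05 in edgeR, which called 0, and DESeq2 called 4. They summed to 9399, 10227 and 9105 CPM in Db replicates 1 to 3 and to 6061, 3027 and 6780 CPM in Db + Ato10 replicates 1 to 3, with Umod the most abundant. Here replicate 2, not replicate 1, was the lowest library. Of all tested genes, 5.71% were lower at an unadjusted p under 0.05 in edgeR, and DESeq2 called 1.29% as lower. The 6 markers of injured tubule all had a positive log2 fold change (median 4.00), with edgeR calling 0 (5 at an unadjusted p under 0.05) and DESeq2 5. Their sum was 2999, 3511.5 and 1873 CPM against 14817, 30345.5 and 9617 CPM, with Spp1 the most abundant, and all 3 Db + Ato10 libraries were above the Db libraries. The shares of all tested genes that were higher were 11.2% at an unadjusted p under 0.05 in edgeR and 5.17% called by DESeq2.

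Other cell types had no common direction. All 8 markers of fibroblast and pericyte had a positive log2 fold change (median 2.58, or 1.01 without Db + Ato10 replicate 1). The 8 markers of fibroblast and pericyte summed to 138, 197 and 140.4 CPM in Db replicates 1 to 3 and to 1644, 678 and 256 CPM in Db + Ato10 replicates 1 to 3, led by Dcn in mean TPM and in 4 of 6 libraries, with edgeR calling 0 (6 at an unadjusted p under 0.05) and DESeq2 4, with Dcn left without a p. The 8 endothelial markers, led by Plvap, summed to 558, 504 and 558 CPM against 574, 242 and 559 CPM, and edgeR called 0 (1 at an unadjusted p under 0.05) and DESeq2 0. The 6 podocyte markers, led by Podxl, summed to 586, 387 and 384 CPM against 633, 231 and 393 CPM, with 0 calls by edgeR (1 at an unadjusted p under 0.05) and 0 by DESeq2. Endothelial and podocyte sums were lowest in Db + Ato10 replicate 2 and overlapped between the groups. Over all tested genes, edgeR had 11.2% higher and 5.71% lower at an unadjusted p under 0.05. DESeq2 called 5.17% of all tested genes as higher and 1.29% as lower. The 8 markers of urothelium and squamous epithelium, led by Upk1a in TPM in all 3 Db libraries and by Krt5 in all 3 Db + Ato10 libraries, summed to 5.64, 3.38 and 4.12 CPM against 120.1, 61.8 and 20.3 CPM, with 4 tested and 0 called by edgeR. Of the 4 tested, 3 had a positive log2 fold change, while that of Upk1a was -0.66, at 2.70, 1.99 and 1.78 CPM against 2.17, 0.878 and 1.02 CPM. Krt5 alone stood at 74.2, 39.8 and 11.7 CPM in Db + Ato10 replicates 1 to 3, so the sum does not stand for every marker. The 2 that DESeq2 called, Krt5 and Krt14, reached the filter by the Db + Ato10 libraries alone, so their direction was bound to be positive.

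**Figure D3:**
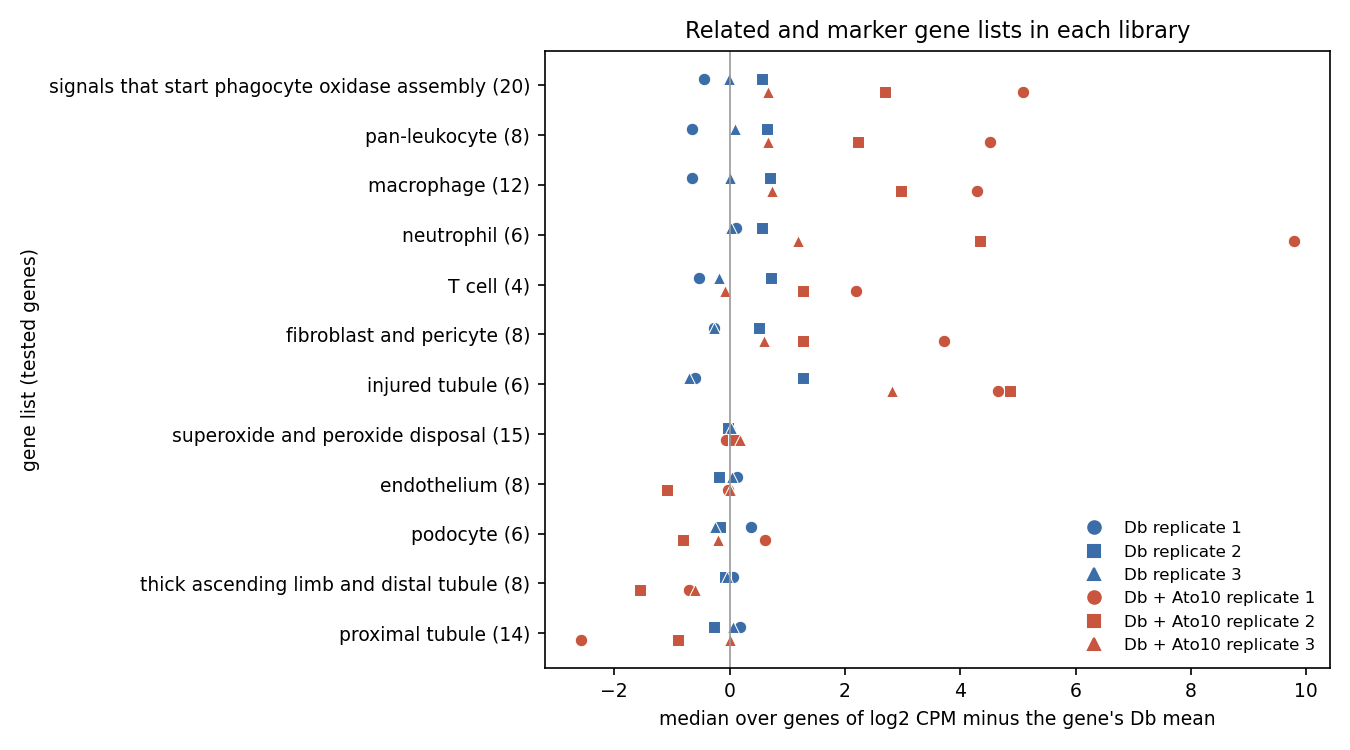
Median over the tested genes of each list of log2 CPM minus the Db mean of the gene (horizontal axis), with Db libraries in blue and Db + Ato10 libraries in red, marker shapes for replicates 1 to 3 and the number of tested genes in brackets. Phagocyte signals and leukocyte lists were highest in Db + Ato10 replicate 1, and proximal tubule markers were lowest there, at -2.58, while replicate 3 lay near the Db libraries for these lists.

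The sequences before the start of the genes are shown because the log2 fold changes of the catalytic genes Nox4 and Cybb had opposite signs, though edgeR called neither. RefSeq promoters (build GRCm38.p6) were found for 4 of the 6 genes, not for Ncf4 and Rac2, and the 250 bases before the start are given. Capitals mark GGGCGG, the GC box core, or its reverse complement CCGCCC, found in 32.7% of 32841 promoter windows of the same length, on either strand. GAGGAA or TTCCTC, letters of a core that the blood cell factor PU.1 can bind, occurs in 23.3% of windows and in none of these 4, and TATAAA or TTTATA in 12.4% and in none of these 4. The motifs do not overlap each other in these windows.
Nox4, chr7:87246399-87246648 (+ strand): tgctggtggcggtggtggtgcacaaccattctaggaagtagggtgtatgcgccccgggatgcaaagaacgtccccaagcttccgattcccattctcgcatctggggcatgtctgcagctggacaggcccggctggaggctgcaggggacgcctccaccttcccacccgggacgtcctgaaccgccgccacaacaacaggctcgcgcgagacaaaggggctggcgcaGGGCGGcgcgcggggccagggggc
Cyba, chr8:122432941-122433190 (- strand): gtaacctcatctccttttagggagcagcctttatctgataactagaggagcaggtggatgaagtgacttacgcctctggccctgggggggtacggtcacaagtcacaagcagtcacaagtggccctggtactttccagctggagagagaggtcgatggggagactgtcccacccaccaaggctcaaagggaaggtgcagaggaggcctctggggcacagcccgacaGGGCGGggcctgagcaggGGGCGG
Cybb, chrX:9469325-9469574 (- strand): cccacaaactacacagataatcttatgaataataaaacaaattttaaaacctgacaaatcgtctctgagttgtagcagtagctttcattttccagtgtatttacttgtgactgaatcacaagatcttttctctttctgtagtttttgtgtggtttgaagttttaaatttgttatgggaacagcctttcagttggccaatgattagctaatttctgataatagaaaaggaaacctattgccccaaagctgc
Ncf1, chr5:134229626-134229875 (- strand): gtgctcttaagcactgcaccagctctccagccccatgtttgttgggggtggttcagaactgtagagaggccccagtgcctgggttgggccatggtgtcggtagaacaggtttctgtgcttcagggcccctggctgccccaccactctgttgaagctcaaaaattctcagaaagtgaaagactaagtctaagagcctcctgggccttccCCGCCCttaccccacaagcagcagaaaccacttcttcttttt

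The window of Nox4 holds 67.2% G and C with 20 CpG dinucleotides and 1 GC box core, that of Cyba 60% with 6 and 2 cores, that of Ncf1 54.4% with 2 and 1 core, and that of Cybb 34.0% with 1 and no core. The median window holds 52.4% G and C and 6 CpG dinucleotides, so Nox4 lies above and Cybb below the middle of all promoters in both. In GENCODE M21 0 transcripts have an exon in any of these windows; those of Nox4 and Cybb lie in an intron of another transcript of the same gene, and that of Cyba within the span of Gm20388. A match of letters is a description and no site of binding, and a missing match says only that these letters are not in the window.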

How the data were processed

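Kidney RNA of 3 Db and 3 Db + Ato10 samples was analysed. Expected counts of genes and transcripts were deposited without normalization, as estimated reads (91.3% of gene values were whole), with FPKM and TPM of genes. The deposited FPKM are scaled to length and library size and the deposited TPM to length and a fixed total. The submitters' processing notes name HISAT, Bowtie2 2.2.5 and mm9, the counter is not given in the sources used here, and the records name oligo-dT selection or rRNA depletion without saying which was used. Columns of authors' group means and 12 transcript columns of FPKM and TPM were not used, and no pair of libraries was identical (0 pairs).

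Counts were rounded to whole numbers and tested with edgeR 4.0.16 in R 4.3.3 (TMM, quasi-likelihood F test, installed defaults) on genes reaching 10 counts in 3 or more libraries. Fold changes over 1.5 with a Benjamini-Hochberg adjusted p under 0.05 were called. The study's methods state these criteria without a test. SE is |log2 fold change| over the root of F. The prior count of log2 CPM was 2. Alternatives were DESeq2 1.42.0, limma 3.58.1 (voom, and log2 FPKM or TPM with a pseudocount of 1 or 0.1), other factors and filters, the replicate block and each library left out, and DESeq2 with each library left out was added after seeing the data. The oxidase genes and the gene lists were chosen with earlier results of these data known. Named genes were drawn from all 6 oxidase genes, the 3 most abundant of each list by CPM or TPM, related genes called by either tool, all genes of lists of at most 6, and the 5 nearest in profile to Nox4 and to Cybb. Nox1, Duox1, Duox2, Fpr1 and Ly6g were named to account for their lists after their values were seen. Some genes of the lists are not reported here but remain in list medians and sums. Tests were run in Python 3.11.15 with scipy 1.17.1, and figures were drawn with matplotlib 3.10.9.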

Additional observations from a re-analysis of the deposited data

How the results depend on the processing

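Cyba kept its direction and stayed uncalled under all 21 other settings tried, with log2 fold changes between 0.19 and 0.35. Nox4 stayed lower and the other 4 genes higher under the same 21 settings. The count of called genes was 0 with edgeR, 884 with DESeq2 and 1 with limma on log2(FPKM + 0.1). Log2 fold changes of Cybb, Ncf1, Ncf4 and Rac2 passed with DESeq2 at 3.05, 5.23, 4.87 and 4.80, and the cause was not tested. With a library left out, by edgeR or DESeq2, the count of called genes ran from 0 to 2614, and log2 fold changes ran from -2.19 to -0.83 for Nox4, 1.66 to 3.56 for Cybb, 2.97 to 5.79 for Ncf1, 2.00 to 5.44 for Ncf4 and 1.93 to 5.37 for Rac2, lowest in size without Db + Ato10 replicate 1 and highest without replicate 3. DESeq2 with a library left out was chosen after seeing the data.

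Genes whose groups did not overlap ran from 1990 to 3516 higher and from 2013 to 3411 lower with a library left out, where fewer libraries have to be separated. Among related genes, DESeq2 called 14 of the assembly signals, and with a library left out it called from 4 to 17 and edgeR from 0 to 15, while for superoxide and peroxide disposal DESeq2 called from 0 to 2 and edgeR 0, and for the other oxidases and their partners DESeq2 called from 0 to 3 and edgeR from 0 to 2. DESeq2 called 5 transcripts of the 6 genes.

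With the replicate number as a block, edgeR called 0 genes and 0 transcripts, and log2 fold changes were -1.67 for Nox4, 2.30 for Cybb, 0.28 for Cyba, 3.90 for Ncf1, 3.19 for Ncf4 and 2.95 for Rac2, none called. Deviations of samples with the same number correlated at -0.151, 0.0613 and 0.208. Db + Ato10 replicates 2 and 3 correlated best with the Db sample of their own number, and replicate 1 with Db replicate 2 (0.311). So few samples cannot decide whether those with the same number were paired, and the records give them only a shared number.

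Depth limits the phagocyte genes in Db libraries, where Ncf4 rested on 17 to 29 counts.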
